A study of Mus musculus with 6 samples.

Results

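The genes described here encode secreted protease inhibitors with a whey acidic protein (WAP) domain. They are Wfdc1, Wfdc2, Wfdc3, Wfdc12, Wfdc15b, Wfdc18 and Slpi, which are 7 of the 55385 genes in the expression tables. They were taken by symbol, and the set was selected on the difference between Control and DMHCA in earlier results of these same data. Their levels and fold changes are therefore a description, and no p-value is given for any of them. Another 16 mouse genes with a WAP domain were read beside them.

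The study asked how the LXR agonist DMHCA acts on ErbB2-driven mammary tumors in a gland made fibrotic. All mice were female NeuT/ATTAC mice, in which the MMTV promoter drives activated rat ErbB2 (V664E) and the FABP4 promoter drives an FKBPv-caspase-8 fusion. AP20187, which pairs the caspase fusion and so removes part of the mammary fat, was injected at 0.4 mg/kg, 3 times per week, from 6 weeks of age. The DMHCA group also ate a diet with 0.05% DMHCA, equal to 100 mg/kg, from 8 weeks of age, and the Control group did not. The treatment label of the controls reads AP20187 Vehicle and may stand for AP20187 in its vehicle or for vehicle without it. Tissue is labelled as fibrosis of the mammary gland, and the study describes the RNA as coming from tumors. Age at collection was not given in the sources used here.

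There were 3 libraries per group. Expected counts, the estimated number of reads per gene, summed to 53939201, 63420620 and 46358654 in Control libraries 1, 2 and 3. The sums in DMHCA libraries 1, 2 and 3 were 55539411, 52755446 and 52330938. DMHCA libraries 1 and 3 stood apart from every other pair. Their biological coefficient of variation was 0.0326, whereas the other pairs within a group lay between 0.374 and 0.573. They were counted as 1 sample, which leaves n = 3 for Control and n = 2 for DMHCA. Values of both libraries are still given below. Luminal keratin Krt8 was at 748, 624 and 644 TPM in the Control libraries and at 1184, 1032 and 1221 TPM in the DMHCA libraries. Epcam, an epithelial adhesion protein, was between 926 and 1494 TPM in the 6 libraries. These luminal markers were abundant in every library. Others of the list were not, with Foxa1 at 5.42 TPM or less, and the basal keratins Krt5 and Krt14 did not exceed 14.3 and 22.2 TPM. Each sample was bulk tissue, so fewer cells of a type and less RNA per cell cannot be told apart.

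The WAP domain is a small fold held together by disulfide bonds, and many proteins that carry it block serine proteases by presenting a loop to the active site. Such proteins are secreted by epithelia into milk, saliva, mucus and seminal fluid, where they protect tissue from proteases released by leukocytes, and several also kill bacteria. In the mouse most of the genes lie in a cluster on chromosome 2, and a smaller tandem group lies on chromosome 11. The mammary gland is where the founding protein, a component of whey, was described.

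Wfdc18 was by far the most abundant gene of the family. It encodes the extracellular proteinase inhibitor Expi, also called WDNM1, which is made by mammary epithelium. Wfdc18 was at 7202, 6535 and 9621 TPM (transcripts scaled to a fixed sum per library, a level per length) in Control libraries 1, 2 and 3. Its level in DMHCA libraries 1, 2 and 3 was 6975, 8281 and 7297 TPM. The groups overlapped, and Control library 3 had the highest level. Mean TPM was 7786 ± 1624 (SD, n = 3) in Control and 7708 ± 809 (SD, n = 2) in DMHCA. The difference between groups was smaller than the spread within either of them, and the log2 fold change fitted to the counts was -0.21 (SE 0.37). Ranked by TPM among all genes, Wfdc18 was between rank 7 and rank 14 in the 6 libraries. It made up 95.8%, 95.3% and 96.0% of the summed TPM of all 23 WAP-domain genes in Control libraries 1, 2 and 3. In the DMHCA libraries the share was 97.9%, 99.01% and 97.8%. The share was higher in all 3 DMHCA libraries, while the level of Wfdc18 itself overlapped between the groups. The TPM of the other 22 WAP-domain genes summed to 318, 324 and 397 in the Control libraries and to 149, 82.9 and 161 in the DMHCA libraries. Wfdc5, high in Control libraries 1 and 2, and Wap, high in Control library 3, were part of that sum. Of the 7 genes, those other than Wfdc18 summed to 178, 67.4 and 181 TPM in the Control libraries and to 69.2, 15.3 and 76.4 TPM in the DMHCA libraries, and these sums overlapped between the groups.

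Wfdc2 and Slpi were the genes of the set whose counts in the DMHCA samples were below those of all Control samples. Wfdc2 encodes HE4, a secreted protein of the epididymis and of glandular and airway epithelium that is used as a serum marker of ovarian cancer. Wfdc2 was at 31.0, 33.03 and 30.6 TPM in Control libraries 1, 2 and 3, from 748, 1169 and 746 expected counts. It was at 5.68, 2.54 and 6.46 TPM in DMHCA libraries 1, 2 and 3, from 148, 58 and 140 expected counts. Every DMHCA library lay below every Control library, and the Control libraries lay close together. Mean TPM was 31.5 ± 1.31 (SD, n = 3) in Control and 4.31 ± 2.50 (SD, n = 2) in DMHCA, a 7.32-fold lower mean level and a difference larger than the spread within either group. The log2 fold change fitted to the counts was -3.10 (SE 0.56).

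Slpi encodes secretory leukocyte protease inhibitor, which blocks neutrophil elastase and cathepsin G on mucosal surfaces. Its level was 61.3, 26.7 and 110 TPM in Control libraries 1, 2 and 3 and 26.2, 11.1 and 27.6 TPM in DMHCA libraries 1, 2 and 3. Control library 3 was the highest and DMHCA library 2 the lowest. On the TPM scale the groups touched, because DMHCA library 3 was above Control library 2. In counts scaled for library size and composition (normalized counts) Slpi was at 1234, 750 and 2468 in the Control samples. It was at 214 in DMHCA sample 2 and at 583 in the sample made of DMHCA libraries 1 and 3. On that scale the groups did not overlap. Mean TPM was 65.9 ± 41.7 (SD, n = 3) in Control and 19.0 ± 11.1 (SD, n = 2) in DMHCA, so the mean was 3.46-fold lower and the difference was close to the SD of Control. The fitted log2 fold change was -1.89 (SE 0.68).

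The levels of Wfdc3 and Wfdc12 were set mainly by single libraries. Wfdc3, whose function is little known, was at 4.82, 3.15 and 35.5 TPM in Control libraries 1, 2 and 3 and at 9.42, 1.32 and 8.96 TPM in the DMHCA libraries. Control library 3 alone was high, and the other Control libraries lay within the range of the DMHCA libraries. Its fitted log2 fold change was -1.40 (SE 1.17), and without Control library 3 it was 0.25, with the sign turned. Wfdc12, which encodes a small secreted protein with antibacterial activity, was at 79.9, 4.00 and 4.19 TPM in Control libraries 1, 2 and 3. In DMHCA libraries 1, 2 and 3 it was at 27.0, 0.14 and 32.3 TPM. Control library 1 was the highest, DMHCA library 2 had 3 expected counts, and the groups overlapped. The fitted log2 fold change of Wfdc12 was -0.94 (SE 1.89). It was 1.63 without Control library 1 and 0.07 without DMHCA library 2.

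Wfdc12 lies within an antisense gene, A730032A03Rik, that also overlaps its neighbour Wfdc5, and whether strand was used in the counting is not given in the sources used here. Expected counts of Wfdc12 were 1868.96, 130.42 and 96.9 in the Control libraries and 652.98, 3 and 738 in the DMHCA libraries. The antisense gene had 213.04, 1436.72 and 11.1 expected counts in the Control libraries and 3.02, 30 and 4 in the DMHCA libraries. Counts of Wfdc12, Wfdc5 or the antisense gene were fractional in all 3 Control libraries and in DMHCA library 1, and in these their sum was a whole number, for example 15593 in Control library 2. Some reads had therefore been divided among these genes. How many is not known from these values, so those of Wfdc12 are uncertain. Of the 7 genes, 6 had whole expected counts in every library (within 1e-06).

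Wfdc1 was low and Wfdc15b was near the limit of detection. Wfdc1, which encodes ps20, a protein first found in prostate stroma, was at 0.61, 0.55 and 0.63 TPM in Control libraries 1, 2 and 3, from 29, 36 and 29 expected counts. It was at 0.83, 0.12 and 0.90 TPM in the DMHCA libraries, from 40, 5 and 41 expected counts. Only DMHCA library 2 was low, and the other DMHCA libraries were above all 3 Control libraries. The fitted log2 fold change was -0.42 (SE 0.86), and without DMHCA library 2 it was 0.42. Wfdc15b, which like Wfdc12 encodes an antibacterial secreted protein, had 2, 0 and 2 expected counts in the Control libraries and 1, 0 and 3 in the DMHCA libraries. No library exceeded the 3 counts that a count of 0 allows, so a difference was not detectable at this depth and no fold is given.

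**Figure D1:**
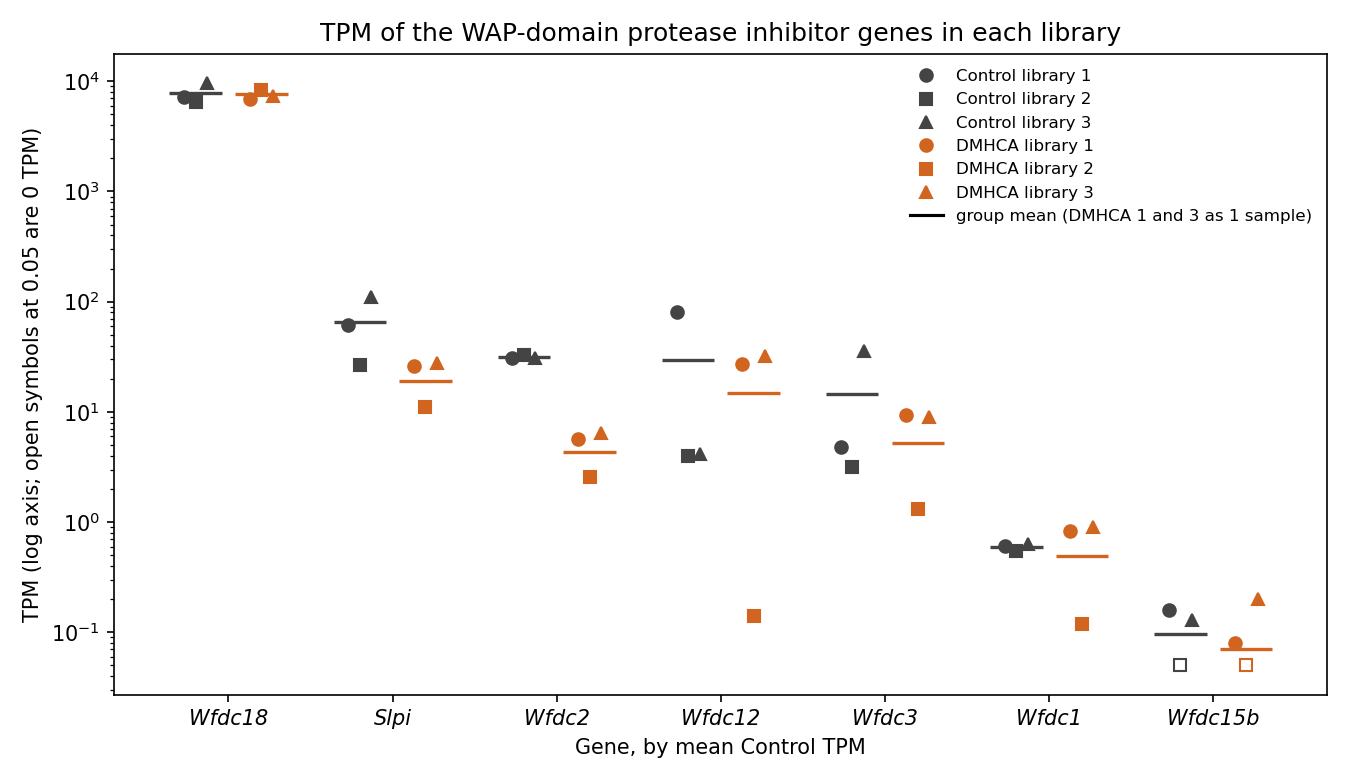
TPM of the 7 genes (log axis) in each of the 6 libraries, with Control in grey and DMHCA in orange; a symbol is 1 library and a line is a group mean, with DMHCA libraries 1 and 3 averaged first. Wfdc18 lies between 6535 and 9621 TPM in both groups, Wfdc2 is at 30.6 to 33.03 TPM in Control and at 2.54 to 6.46 TPM in DMHCA, and the other genes overlap on this scale.

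In the order of mean TPM, Wfdc18 stood alone at the top in both groups. Below it in Control came Slpi, then Wfdc2, then Wfdc12 at 29.4 ± 43.7 (SD, n = 3) and Wfdc3 at 14.5 ± 18.2 (SD, n = 3), and these neighbours did not differ beyond their spread. In DMHCA the order was Slpi, then Wfdc12 at 14.9 ± 20.9 (SD, n = 2), Wfdc3 at 5.26 ± 5.56 (SD, n = 2) and Wfdc2, again without a gap larger than the spread. Wfdc1 and Wfdc15b were last in every library. Wfdc2 ranked above Wfdc3 in Control libraries 1 and 2 and in DMHCA library 2, and below it in the other libraries.

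Across all genes, edgeR's quasi-likelihood test called 0 of 19427 genes tested at an adjusted p of 0.05 (0%), and the lowest adjusted p was 0.644. At an unadjusted p of 0.05, 685 genes were higher (3.53%) and 793 lower (4.08%) with DMHCA. At an adjusted p of 0.05, DESeq2 called 265 genes on the 5 samples and 886 on the 6 libraries. Of the 7 genes, 6 passed the filter on low counts and Wfdc15b did not. Wfdc2 and Slpi were lower without overlap between the samples in normalized counts, which held for 12.2% of all genes tested. None was higher without overlap, against 13.8% of all genes tested. Because this contrast chose the genes, nothing is read from these counts. All 6 fitted values were below 0, with a median log2 fold change of -1.17, and the median of all genes tested was -0.03.

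Among the other 16 WAP-domain genes, 6 had 0 counts in every library, including Eppin, an inhibitor on the surface of sperm. A total of 10 had at most 3 counts in every library. Of the 6 that passed the filter, 5 had a lower and 1 a higher fitted value, with a median log2 fold change of -2.09. Their samples were lower without overlap in 2 cases and higher in 1, against 12.2% and 13.8% of all genes tested. Mean TPM reached 1 in either group in 4 of them, which were Wfdc17, Wfdc21, Wap and Wfdc5.

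Wfdc17 and Wfdc21 flank Wfdc18 on chromosome 11. Wfdc17, an inhibitor made by activated macrophages, was at 76.1, 97.7 and 89.7 TPM in the Control libraries and at 74.0, 56.2 and 78.6 TPM in the DMHCA libraries. Its groups overlapped in TPM, and its log2 fold change was -0.63 (SE 0.37). Wfdc21, a close relative of Wfdc18, was at 3.04, 3.89 and 5.39 TPM in the Control libraries and at 0.29, 0.75 and 0.30 TPM in the DMHCA libraries. It was lower in every DMHCA library, but from only 3, 7 and 3 expected counts there and 30, 55 and 55 in Control, and its log2 fold change was -3.24 (SE 0.76). Wfdc17 (chr11:83703991-83706268) ends 2746 bp before Wfdc18 (chr11:83709015-83711348) starts, and Wfdc21 (chr11:83746940-83752642) starts 35591 bp after Wfdc18 ends. The 3 genes lie on the + strand and had whole expected counts in every library. Neighbours in this tandem group thus had different patterns, with Wfdc18 and Wfdc17 overlapping between the groups and Wfdc21 lower without overlap.

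Wap, the whey protein that names the family, was at 11.6, 0.44 and 120 TPM in Control libraries 1, 2 and 3 and at 3.83, 0.22 and 4.19 TPM in the DMHCA libraries. Control library 3 was high and Control library 2 was about as low as DMHCA library 2. Wfdc5 was at 49.5, 155 and 0.87 TPM in the Control libraries and at 1.17, 9.86 and 0.84 TPM in the DMHCA libraries. Here Control library 3 was among the lowest, the reverse of Wap. The expected count of Wfdc5 was fractional in Control library 2 only, at 14025.86, where those of Wfdc12 and the antisense gene were fractional too. With which of them Wfdc5 shared reads is not known. Log2 fold changes were -4.43 (SE 2.25) for Wap and -4.07 (SE 1.97) for Wfdc5, and the groups overlapped for both.

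Of the 23 genes, 16 lie on chromosome 2 (GRCm38) between positions 164176327 and 164745931. Among the 7 genes these are Wfdc12 (chr2:164189231-164190608), Wfdc15b (chr2:164214454-164221660), Slpi (chr2:164354070-164389095), Wfdc2 (chr2:164562413-164568510) and Wfdc3 (chr2:164731180-164745931). Wfdc2 lies on the + strand and the other 4 on the - strand. Wfdc1 (chr8:119666365-119688222, + strand) stands apart on chromosome 8. Only 5 of the 16 chromosome 2 genes passed the filter, and the fitted value of all 5 was below 0, though that of Wfdc12 and Wfdc3 turned when 1 library was left out. Expressed and silent genes were interleaved, and Wfdc6a, the next WAP-domain gene after Wfdc2, had 0 counts in every library.

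The genes around them had fitted values in both directions. Because this contrast chose the 7 genes, no difference from their neighbours is read from these values. Within the interval and 1 Mb on each side there were 64 other protein-coding genes, of which 47 were tested, 29 with a higher and 18 with a lower fitted value. Their median log2 fold change was 0.10. Of all genes tested, 9328 had a higher and 10099 a lower fitted value, with a median of -0.03. Before the interval the nearest genes were Pabpc1l with a log2 fold change of 0.94 (SE 1.01), Tomm34 with 0.14 (SE 0.24), Stk4 with -0.02 (SE 0.28) and Kcns1 with -0.26 (SE 0.74). After it came Dnttip1 with 0.19 (SE 0.30), Ube2c with 1.09 (SE 0.48), Tnnc2 with -0.94 (SE 0.63) and Snx21 with 0.18 (SE 0.39). Ube2c, a ubiquitin-conjugating enzyme of mitosis, was higher without overlap, and the other nearest genes overlapped between groups. Among the neighbours farther away or within the interval, more were higher than lower without overlap. Of all genes tested, 13.8% were higher and 12.2% lower without overlap. DMHCA sample 2 was the highest of the 5 samples for 7 of the 47 genes (14.9%), and it was the highest for 22.0% of all genes tested. It was the lowest for 17 of the 47 genes, and for 4509 of all 19427 genes tested.

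**Figure D2:**
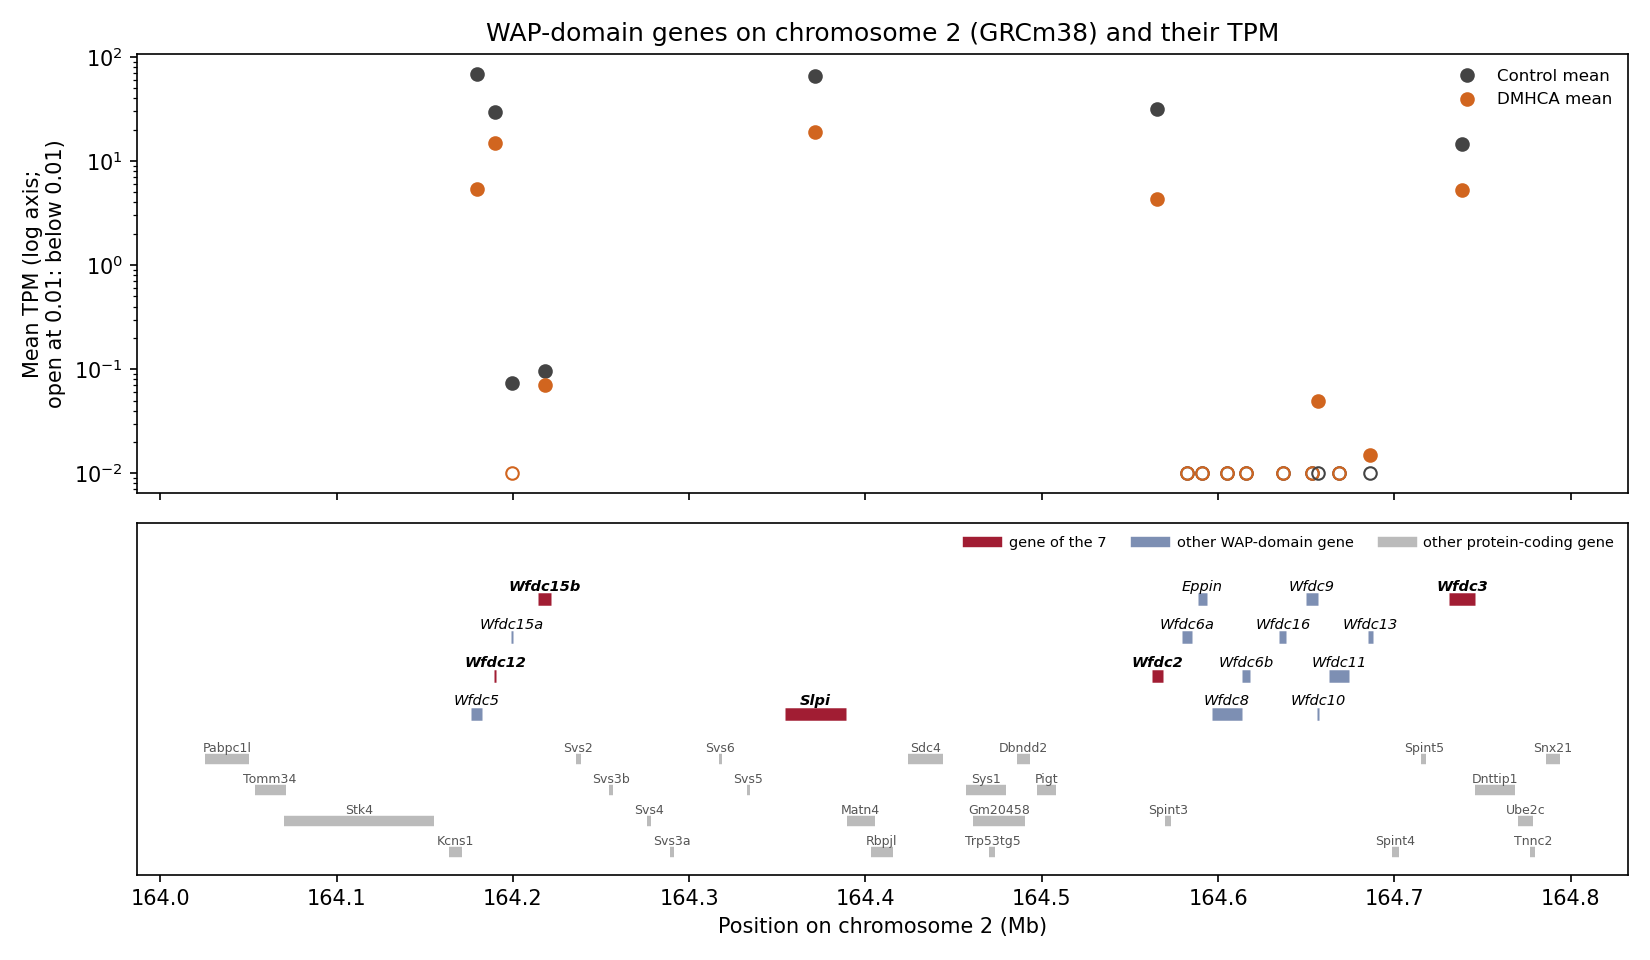
Mean TPM of the 16 WAP-domain genes on chromosome 2 (upper panel, log axis, Control in grey and DMHCA in orange) above their positions in Mb, with the genes in between and the 4 nearest on each side in light grey (lower panel). The genes with a mean of at least 1 TPM are Wfdc5, Wfdc12, Slpi, Wfdc2 and Wfdc3, each with a lower DMHCA mean, and between Wfdc2 and Wfdc3 the WAP-domain genes are at or near 0.

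Promoter windows are shown for Wfdc2 and Slpi, whose normalized counts were lower in DMHCA without overlap, and for Wfdc18, whose groups overlapped. The sequences are from RefSeq (GRCm38.p6), 250 bases before to 50 bases after the start, and windows were found for 6 of the 7 genes and for 19 of the 23. They were searched on both strands for AGGTCA, the half-site of nuclear receptors, for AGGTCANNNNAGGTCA, the repeat that LXR is known to bind and which contains the half-site, for TTCNNNGAA, the STAT motif, and for the TATA box TATAAA. Capitals mark the matches. The window of Wfdc2 is chr2:164562465-164562764 on the + strand, that of Slpi is chr2:164356458-164356757 on the - strand, and that of Wfdc18 is chr11:83708754-83709053 on the + strand.
Wfdc2: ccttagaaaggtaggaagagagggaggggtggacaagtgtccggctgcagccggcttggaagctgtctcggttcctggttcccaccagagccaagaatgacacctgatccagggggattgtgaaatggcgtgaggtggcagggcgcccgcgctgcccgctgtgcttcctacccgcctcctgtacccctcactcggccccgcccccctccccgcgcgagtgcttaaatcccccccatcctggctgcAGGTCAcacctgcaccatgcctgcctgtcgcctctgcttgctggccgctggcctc
Slpi: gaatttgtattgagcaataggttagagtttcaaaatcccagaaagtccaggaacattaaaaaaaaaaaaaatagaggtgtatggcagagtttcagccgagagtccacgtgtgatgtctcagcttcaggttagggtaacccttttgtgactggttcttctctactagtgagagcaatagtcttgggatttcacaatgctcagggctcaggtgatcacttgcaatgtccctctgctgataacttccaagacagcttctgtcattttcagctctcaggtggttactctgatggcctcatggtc
Wfdc18: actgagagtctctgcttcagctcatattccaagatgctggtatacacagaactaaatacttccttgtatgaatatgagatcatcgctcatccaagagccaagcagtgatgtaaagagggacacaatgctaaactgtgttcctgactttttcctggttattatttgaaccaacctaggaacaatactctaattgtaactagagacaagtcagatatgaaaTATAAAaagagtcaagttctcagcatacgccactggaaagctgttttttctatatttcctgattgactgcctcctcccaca

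In the Wfdc2 window AGGTCA begins 5 bases before the start. Wfdc18 has TATAAA beginning 31 bases before the start, and the Slpi window holds none of the searched motifs. AGGTCA was also in the windows of Wfdc3 and Wfdc15b, so 3 of the 6 genes had it. Over the family it was in 8 of the 19 genes and 9 of their 22 windows, and 16.3% of all 32851 promoter windows hold it. Some of these matches are the same site. The windows of Wfdc2 overlap almost fully, and those of Wfdc8 and Wfdc6b hold a shared match on opposite strands. The LXR repeat was in 0 windows of WAP-domain genes and in 0.0152% of all windows. TTCNNNGAA was in 0 of their windows and in 8.30% of all. TATAAA was in 3 of their 22 windows, with Wfdc18 the only one of the 6 genes, and in 13.6% of all. The presence of these letters is a description of the window and not evidence of a bound site. The RefSeq starts of Slpi, Wfdc2 and Wfdc3 lie inside the longer genes annotated in GENCODE, so other starts were not covered. Sequence outside the windows was not searched.

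Serine proteases that secreted inhibitors can meet were read from a list of 20 genes, of which 17 passed the filter. Fitted values were higher for 5 and lower for 12, with a median log2 fold change of -0.44, and 1 was lower without overlap. Of all genes tested, 9328 had a higher and 10099 a lower fitted value, and 13.8% were higher and 12.2% lower without overlap. Elane and Ctsg, the neutrophil elastase and cathepsin G that Slpi blocks, did not exceed 0.22 TPM in any library and were named for that role outside the rule and after their values were seen. The most abundant were the membrane-anchored proteases St14 (matriptase) and Prss8 (prostasin) and the secreted protease Prss23. St14 was at 92.6, 89.8 and 111 TPM in the Control libraries and at 113, 66.6 and 105 TPM in the DMHCA libraries. Prss8 was at 63.2, 31.8 and 44.7 TPM in the Control libraries and at 76.7, 65.7 and 78.1 TPM in the DMHCA libraries. Prss23 was between 25.6 and 44.3 TPM. All 3 overlapped between groups in normalized counts. Klk6, a kallikrein, had the smallest p among those lower, with 1.65, 19.3 and 11.9 TPM in Control and 0.65, 0.76 and 0.83 TPM in DMHCA. Its log2 fold change was -4.24 (SE 1.17), with edgeR's adjusted p = 0.644. Tmprss4 had the smallest p among those higher, with a log2 fold change of 0.87 (SE 0.48).

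Other secreted or epithelial protease inhibitors served as a list of 20 genes, of which 19 were tested. Higher fitted values were found for 5 and lower ones for 14, with a median log2 fold change of -0.58, and samples did not overlap for 4 lower and 1 higher (12.2% and 13.8% of all genes tested). Spint2, a Kunitz inhibitor of matriptase and prostasin, was the most abundant, at 718, 299 and 464 TPM in the Control libraries and at 1099, 671 and 1108 TPM in the DMHCA libraries. Its groups overlapped. Cst3 (cystatin C), between 369 and 794 TPM, and Serpinb6a, between 107 and 155 TPM, overlapped too. Serpinb11 was at 4.28, 25.7 and 5.12 TPM in Control and at 0.99, 0.06 and 0.88 TPM in DMHCA, with a log2 fold change of -4.98 (SE 1.53, edgeR adjusted p = 0.644). Spint1, a Kunitz inhibitor like Spint2, was higher without overlap, with a log2 fold change of 0.66 (SE 0.36, edgeR adjusted p = 0.66). Even Spint2 was far below Wfdc18 on the TPM scale in each library.

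Genes of epithelial antimicrobial secretion, a list of 17 with 15 tested, had 1 higher and 14 lower fitted values and a median log2 fold change of -1.08. Of these, 4 were lower without overlap, as were 12.2% of all genes tested, of which 10099 of 19427 had a lower fitted value. Lcn2 (lipocalin 2, which binds bacterial siderophores) was, like Wfdc18, among the abundant transcripts, at 14993, 11117 and 6944 TPM in the Control libraries and at 8491, 12099 and 8607 TPM in the DMHCA libraries. Its groups overlapped. Ltf, the iron-binding lactoferrin of milk, was at 407, 34.3 and 3151 TPM in Control and at 80.7, 35.1 and 80.8 TPM in DMHCA. Like Slpi, Wfdc3 and Wfdc18, Ltf was highest in Control library 3. Lyz2 (lysozyme) was lower without overlap in normalized counts, with a log2 fold change of -1.08 (SE 0.56). S100a8, an alarmin of neutrophils, was at 199 TPM in DMHCA library 2 and at 28.0 TPM or less in every other library. Its partner S100a9 was not, at 24.3, 14.2 and 21.8 TPM in the Control libraries and at 3.74, 12.9 and 3.95 TPM in the DMHCA libraries, with a log2 fold change of -1.47 (SE 0.62) and no overlap. S100a8 was thus high in the library in which 5 of the 7 WAP-domain genes had their lowest TPM.

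Milk protein and secretory differentiation was a list of 13 genes, all tested, with 3 higher and 10 lower fitted values and a median log2 fold change of -0.48. None was without overlap, against 13.8% higher and 12.2% lower of all genes tested. Csn3 (kappa-casein), between 12114 and 23866 TPM, was the most abundant. Csn2 (beta-casein) was at 766, 15.2 and 13320 TPM in the Control libraries and at 62.6, 19.5 and 50.3 TPM in the DMHCA libraries. Csn1s2a was highest in Control library 3 as well, at 11332 TPM. Wap, Slpi, Wfdc3 and Wfdc18 were also highest in that library. Glycam1 had the smallest p among the lower genes, with a log2 fold change of -7.81 (SE 2.70). Lalba, a subunit of lactose synthase, had it among the higher genes, at 3799 and 3962 TPM in DMHCA libraries 1 and 3 but at 36.7 TPM in DMHCA library 2. Whether the secretory state of the tissue set the levels of the WAP-domain genes was not tested.

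The adipocyte, B cell and basal marker lists had their highest summed TPM in Control library 3. Their counts stand beside those of all genes tested, of which 10099 of 19427 had a lower fitted value and 12.2% were lower without overlap. In normalized counts all 7 adipocyte markers were lower in DMHCA without overlap, with a median log2 fold change of -4.87, as Wfdc2 and Slpi were, while in TPM Plin1 and Slpi overlapped between the groups. Their summed TPM was 299, 134 and 1229 in the Control libraries and 72.2, 77.9 and 70.4 in the DMHCA libraries. Fabp4, whose promoter drives the caspase, was the most abundant, and Lep was at 0 in DMHCA library 3. Control library 3 had the highest sum, and it had the highest Slpi, Wfdc3 and Wfdc18 but not the highest Wfdc2. B cell or lymph node markers, all 9 with lower fitted values and 2 without overlap, summed to 77.9, 3.32 and 757 TPM in the Control libraries and to 14.3, 5.60 and 14.96 TPM in the DMHCA libraries. Ccl21a was the most abundant of them, and none was at 0. Basal or myoepithelial markers, all 8 with lower fitted values and 1 without overlap, summed to 66.9, 33.1 and 132 TPM in the Control libraries and to 64.2, 48.3 and 65.9 TPM in the DMHCA libraries. Acta2 led them and none was at 0. Slpi, Wfdc3 and Wfdc18 had the same highest library as these lists. That was not particular to them, as Wap, Csn2, Ltf and the fibroblast and macrophage sums below were highest there too. The B cell and basal sums of every DMHCA library were above those of Control library 2. The part of these cell types in the result was not tested.

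Salivary gland markers set Control library 1 apart, as Wfdc12 did. They summed to 9787 TPM there, to 21.5 and 157 TPM in Control libraries 2 and 3, and to 67.6, 18.9 and 55.8 TPM in the DMHCA libraries. Bpifa2 was the most abundant of the 14, at 5131 TPM in Control library 1, and Muc19 was at 0 in Control library 2 and in DMHCA libraries 1 and 2. Of 13 tested, 10 had lower fitted values and 2 were lower without overlap (12.2% of all genes tested). The sum followed Bpifa2, Amy1, Smr3a and Dcpp1, and not every marker had this pattern. Prol1, at 16.9, 0.60 and 16.6 TPM in DMHCA libraries 1, 2 and 3 and at 5.33 TPM or less in the Control libraries, was highest in DMHCA libraries 1 and 3, as were Egf and Smr2, and Wfdc12 was also high in these libraries. The part of salivary tissue in its level was not tested. Cornified skin markers summed to between 7.95 and 22.2 TPM, with Sbsn the most abundant, and Calm4 and Krt2 were each at 0 in 5 of the 6 libraries. Of 4 tested, 3 were higher.

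Beside the 13.8% of all genes tested that were higher and the 12.2% that were lower without overlap, the other marker lists were as follows. Luminal markers, 5 higher and 5 lower of 10, summed to 3997, 3542 and 3206 TPM in the Control libraries and to 4784, 4393 and 4824 TPM in the DMHCA libraries, led by Krt18 and with none at 0. The sum was carried by Krt18, Epcam and Krt8 and was higher in the DMHCA libraries, but in normalized counts only Krt8 was higher without overlap and Cldn4 was lower without overlap. Fibroblast markers summed to 816, 365 and 1365 TPM in Control and 679, 712 and 687 TPM in DMHCA, led by Col3a1, with 2 higher and 7 lower of 9 and 1 lower without overlap. Macrophage markers, led by Lyz2, summed to 1180, 942 and 2064 TPM in Control and 1067, 865 and 1069 TPM in DMHCA, with 7 of 8 lower and 3 lower without overlap. Neutrophil markers summed to 55.5, 33.6 and 59.4 TPM in Control and 12.8, 216 and 11.7 TPM in DMHCA, where S100a8 made up most of the sum in DMHCA library 2 and the defining marker Ly6g was at 0 in all 3 DMHCA libraries and in Control library 1. Of the 7 tested, 6 were lower, 2 of them without overlap. Skeletal muscle markers, led by Tnnt3, were lowest in DMHCA library 2 at 252 TPM and between 580 and 1052 TPM elsewhere, with all 6 lower. DMHCA library 2 was likewise the lowest for Wfdc1, Wfdc2, Wfdc3, Wfdc12 and Slpi. None of these lists was tested as a source of the differences.

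The genes most like each WAP-domain gene were found by the root-mean-square difference of centred log2 CPM (counts scaled for library size) over the 5 samples. For Wfdc2 they were Cyp4f13 (0.34), Moxd1 (0.40) and Serpinb5 (0.55) of 12016 genes compared. Serpinb5, the serpin maspin of mammary myoepithelium, was at 31.1, 41.4 and 51.2 TPM in the Control libraries and at 18.0, 2.95 and 18.3 TPM in the DMHCA libraries. It was thus lower in every DMHCA library, as Wfdc2 was. For Slpi the nearest were Ntrk2 (0.24), Smim3 (0.28) and Fmo2 (0.28), and for Wfdc3 Serpinb6b (0.28), Clec3b (0.33) and Angptl4 (0.33). Angptl4, an inhibitor of lipoprotein lipase, was at 12.2, 6.56 and 51.7 TPM in the Control libraries and at 15.02, 5.05 and 16.7 TPM in the DMHCA libraries, with Control library 3 high as for Wfdc3. For Wfdc1 they were Gna15 (0.16), Ndrg2 (0.17) and Zdhhc2 (0.18). For Wfdc18, whose profile hardly varied, they were Bcl10 (0.04), Psme2 (0.05) and Idnk (0.06). For Wfdc12 the nearest genes, Tulp1 (1.25), Lgals7 (1.47) and Slc6a2 (1.72), lay much farther away on the log2 scale. Its own profile also varied more, with an SD of 2.93 against 1.63 for Wfdc2, and the distances are not scaled to that spread.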

How the data were processed

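RNA of 3 Control and 3 DMHCA libraries was sequenced. The authors trimmed reads with Cutadapt 2.9, aligned them with Bowtie2 2.4.1 (mm10) and counted them with RSEM 1.3.1, and deposited expected counts, which are estimated and not normalized. TPM values, deposited by the authors, are scaled for gene length and library. Deposited FPKM were not used.

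Expected counts were rounded to whole numbers. Libraries of a group were summed into 1 sample when their coefficient of variation (genes averaging 100 or more counts) stayed below 0.1 and was over 5 times smaller than in all other pairs. The 5 samples were compared with edgeR 4.0.16 (R 4.3.3; TMM, filterByExpr with a minimum count of 10 and total of 15, quasi-likelihood F-test, Benjamini-Hochberg adjustment), tested on simulated data. DESeq2 1.42.0, other filters, robust estimation, a replicate block, pseudocounts and leaving out each library were alternatives. Nothing states that the libraries of a group come from separate mice beyond the study's description, and p-values measure the spread between these samples.

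Members and lists were chosen with earlier results of these data known. Named were all members, other WAP-domain genes with a mean TPM of at least 1, the 3 most abundant genes and that with the smallest p in each direction of each functional list, the 3 genes with the nearest profile (CPM of at least 5), and the 4 nearest genes on each side. Positions are from GENCODE M21. Chi3l1 was not found by that symbol. Tables and plots were made with pandas 2.3.3 and matplotlib 3.10.9.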

Additional observations from a re-analysis of the deposited data

How the results depend on the processing

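The edgeR count of 0 genes past the threshold held with DESeq2's size factors, a stricter filter, robust estimation and with any 1 library left out (0 to 0). DESeq2 called 265 genes on the 5 samples and 886 on the 6 libraries, and edgeR called 16 without a filter on low counts, where the median log2 fold change of all genes was -0.18. The cause was not tested. With the replicate number as a replicate block edgeR called 0 genes. Deviations of same-numbered libraries correlated at -0.05, 0.32 and 0.33, and those of differently numbered libraries at between -0.36 and 0.32. With so few libraries, and DMHCA libraries 1 and 3 near-identical, these values cannot tell whether the numbers pair the mice. Among the WAP-domain genes, Wfdc2, Slpi and Wfdc18 had a negative log2 fold change under all 14 alternatives, from -3.23 to -2.56, from -2.22 to -1.30 and from -0.37 to -0.06. On the log2(TPM + 1) scale the difference of Wfdc18 was 0.00. With single libraries left out, the value ranged from -0.51 to 0.42 for Wfdc1, from -1.84 to 0.25 for Wfdc3 and from -1.45 to 1.63 for Wfdc12, each turning sign, and Wfdc12 was at 0.07 without DMHCA library 2. Without DMHCA library 2, 1 DMHCA sample is left and is assumed to vary like the controls. Depth limited Wfdc15b. The unadjusted count of 793 lower genes was 1242 without Control library 2 and 318 without DMHCA library 2, and that of 685 higher genes was 407 without Control library 3.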
